A study of Caenorhabditis elegans with 12 samples.

Results

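The proteasome subunit genes of Caenorhabditis elegans were followed in 12 single oocytes. Members were all genes of the count table whose symbol is pas-, pbs-, rpn- or rpt- followed by a number, which gave 33 of 46903 genes. The rule used names only and no measured value. The members comprised 14 genes of the core particle, 7 of its alpha ring (pas-1 to pas-7) and 7 of its beta ring (pbs-1 to pbs-7), and 19 genes of the regulatory particle. Of the regulatory genes 9 encode base subunits, 9 encode lid subunits, and rpn-10 was kept apart because its product sits between base and lid. All 33 passed the filter on low counts, and the lowest count of any member in any oocyte was 61. The 33 are protein coding in the reference annotation, lie on chromosomes I (10), II (7), III (8), IV (3) and V (5), and none lies on X.

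The proteasome degrades proteins tagged with ubiquitin. Its core particle is a barrel in which the alpha rings gate the entry and some beta subunits hold the proteolytic sites on the inside. The regulatory particle caps the barrel: ubiquitin receptors hold the substrate, a deubiquitinase of the lid removes the tag, and a ring of ATPases in the base unfolds the chain and feeds it into the core. In the C. elegans germ line, proteins of the oocyte such as the RNA-binding protein OMA-1 are removed by the proteasome when the oocyte becomes an embryo.

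Each library held 1 oocyte of an untreated adult of the wild-type genotype, taken at position -1, -3 or -5 of the gonad, with 4 oocytes per position. Positions count back from the spermatheca, so -1 is the oldest oocyte and -5 the youngest of those sampled. The series compares gene expression among oocytes of these ages. The labels name no animals and give no strain, so a position was treated as 1 sample, oocytes of a position show the spread among single cells, and no test or p-value between positions is given.

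Libraries held 8358019 to 20446599 counts and 8289 to 10054 detected genes. Levels are in CPM, read counts scaled by library size after TMM correction. Intervals at 95% cover the counting error of reads only, and not the spread among oocytes. The kit amplifies by PCR without molecular identifiers, so copies of a molecule count as separate reads and the intervals may be too narrow even for that. CPM is relative to the scaled library, so the RNA content of an oocyte was not part of any comparison. The oocyte identity of the libraries held for all 10 oocyte markers listed, among them cbd-1 with a mean of 5187 CPM and oma-1 with 914 CPM. Of 7 sperm genes listed none passed the filter, and msp-142, spe-11, gsp-4 and ssp-16 were at 0 in all 12. The other sperm genes, gsp-3, spe-9 and msp-56, were detected in some oocytes, at up to 2.46, 1.58 and 0.336 CPM. Replicate 4 of -5 carried the largest shares of gonadal sheath and spermatheca markers (0.077% of counts, against 0.0181% or less elsewhere) and of hypodermis and cuticle markers (0.0764%, against 0.0274% or less). Of 8 sheath markers 4 passed the filter, led by inx-8, which reached 673 CPM, with fkh-6 at 0 in 11 oocytes, and of 9 cuticle markers 7 passed, with dpy-7 and rol-6 at 0 in all 12. Muscle markers took 0.0196 to 0.123% of counts, mostly from unc-54 with a mean of 674 CPM, and intestine markers 0.00422 to 0.0254%. Replicate 1 of -3 had the lowest TMM factor, 0.798, and the largest shift between long and short genes, which is given with the members' values further on.

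The 33 genes together took 1.64% of all counts at -1 (interval 1.634 to 1.640), 1.38% at -3 (1.379 to 1.385) and 1.46% at -5 (1.461 to 1.467). In single oocytes the share was 1.78, 1.51, 1.58 and 1.61% in replicates 1 to 4 of -1, 1.15, 1.43, 1.65 and 1.36% in those of -3, and 1.47, 1.24, 1.31 and 1.76% in those of -5. The oocytes of every pair of positions overlapped, with replicate 1 of -3 the lowest of the 12 and replicate 1 of -1 the highest. Replicate 4 of -5, at 1.76%, lay above its 3 companions, and without it the share at -5 was 1.34%. Without replicate 1 of -3 the share at -3 was 1.48%.

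Core particle messages were abundant and close to each other. All 14 had a mean level over the 12 oocytes between 209 and 865 CPM. The highest of all 33 members was pbs-7, a structural beta subunit, at 865 CPM, a mean above that of 98.6% of the 8718 genes that passed the filter. The 7 alpha genes, whose products form the outer rings, lay between 261 CPM (pas-7) and 668 CPM (pas-3). The 3 beta genes whose products carry the proteolytic sites were pbs-5 (the chymotrypsin-like site) at 675 CPM, pbs-1 (caspase-like) at 469 CPM and pbs-2 (trypsin-like) at 449 CPM. The levels of pbs-1 and pbs-2 lay within each other's range over the oocytes, 389 to 611 CPM against 337 to 608 CPM. The lowest core gene was pbs-3, a structural beta subunit, at 209 CPM.

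**Figure D1:**
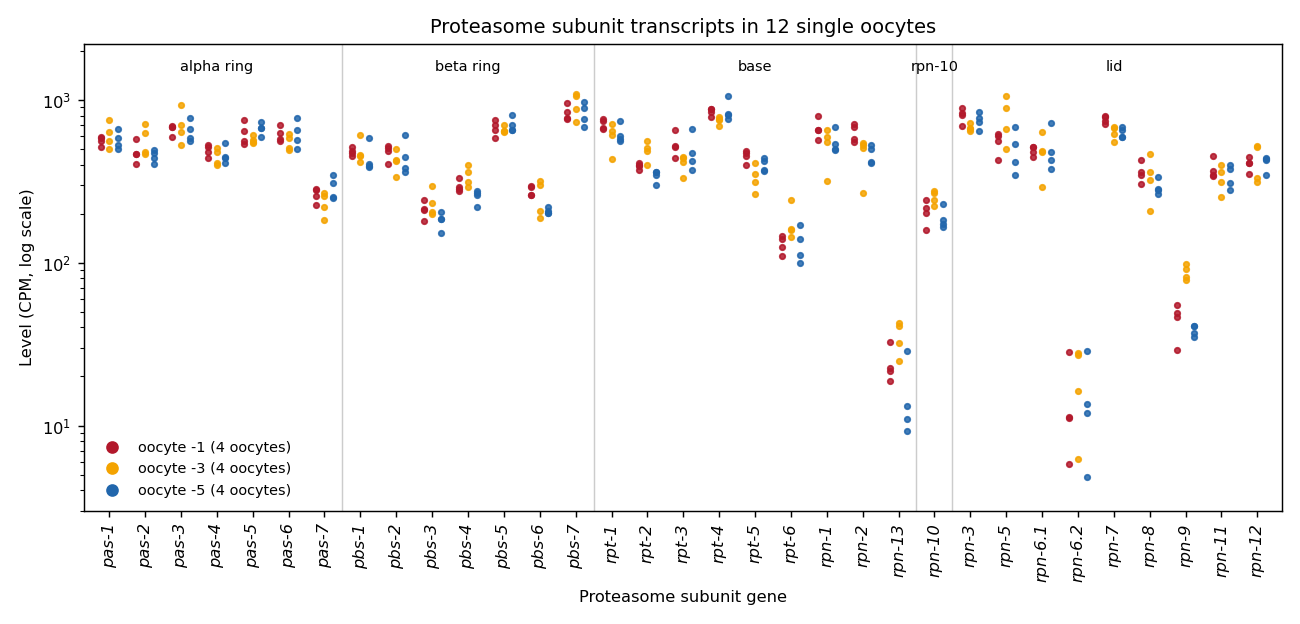
Level of each of the 33 proteasome subunit genes in each of the 12 oocytes, in CPM on a log scale, with 1 point per oocyte coloured by position and the genes ordered by ring, base and lid. The 14 core genes lie between 152 and 1078 CPM in every oocyte, while rpn-13, rpn-6.2 and rpn-9 stay under 100 CPM.

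Regulatory particle messages spanned a wider range, from 16.1 to 818 CPM. Among the 6 ATPase genes rpt-4 was highest at 818 CPM, the second highest of all members, and rpt-6 lowest at 146 CPM. The scaffold genes of the base, rpn-1 and rpn-2, had 582 and 519 CPM. In the lid, rpn-3 had 741 CPM, the third highest of all members, and rpn-11, the deubiquitinase, 349 CPM. The ubiquitin receptors differed widely: rpn-1, which also binds ubiquitin in yeast, stood at 582 CPM, rpn-10 at 215 CPM and rpn-13 at 24.8 CPM. The paralogs rpn-6.1 and rpn-6.2, each a lid scaffold of the same kind, stood at 487 and 16.1 CPM, and every oocyte had more rpn-6.1 than rpn-6.2, with 291 CPM the lowest value of the first and 28.5 CPM the highest of the second. The counting command named no option for reads that map to several places, so reads that match both paralogs could be lost from both levels.

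Among all members rpn-6.2, rpn-13 and rpn-9, a lid scaffold with 56.8 CPM, were the lowest, and the next was rpt-6 at 146 CPM. Their mean levels lay above those of 37.6%, 43.9% and 60.4% of the genes that passed, against at least 82.3% for each of the other 30. Levels of different genes are also given per kilobase of exon. A kit that reads 3' ends need not give counts in proportion to length, so this scale was not taken as the better one. Per kilobase the leading genes were pbs-7 (908 CPM per kb), pas-5 (723) and pbs-5 (638), all of the core particle, and the same 3 lid and base genes were lowest, with rpn-6.2 at 10.6, rpn-13 at 16.7 and rpn-9 at 37.9 CPM per kb.

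Most subunit genes varied little from oocyte to oocyte. The SD of log2(CPM + 1) over the 12 oocytes had a median of 0.24 over the 33 members, against 0.54 over all genes that passed. Part of that gap goes with level, so the 30 members with a mean of at least 100 CPM were set beside the 2285 genes past the same limit. The median SDs were 0.24 and 0.35, and 28 of the 30 lay under 0.35. These sets were not matched in level, with medians of 480 CPM for the members and 183 CPM for the genes. The part of level in the remaining gap was not tested. The steadiest member was pbs-5, with an SD of 0.12 and 580 to 809 CPM. The 14 core genes had SDs of 0.12 to 0.27. The regulatory genes ranged from 0.15 for rpt-4 to 0.86 for rpn-6.2, whose level was 4.82 CPM in replicate 2 of -5 and 28.5 CPM in replicate 3 of the same position. Among abundant members rpn-5, a lid scaffold, was the most variable, with an SD of 0.45 and levels from 345 to 1049 CPM.

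**Figure D2:**
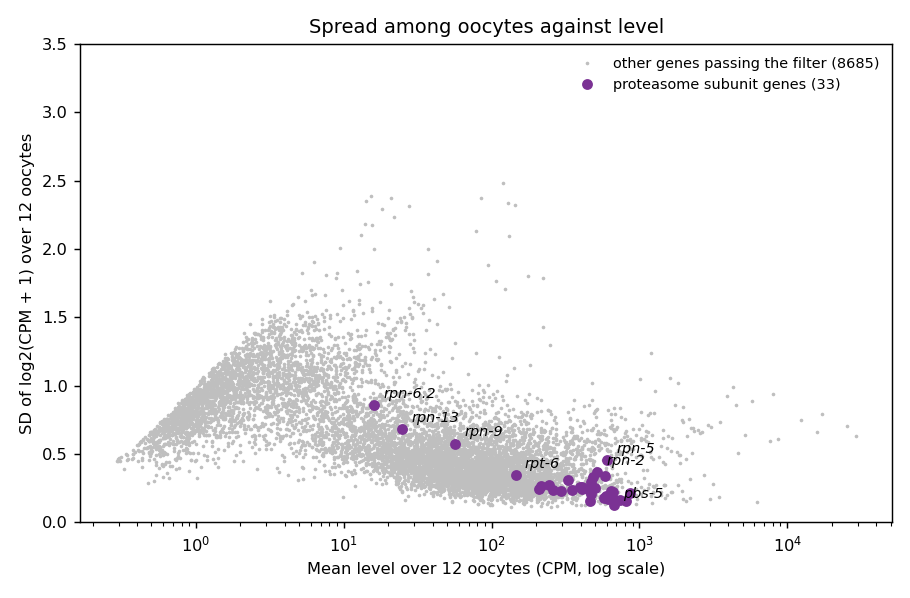
SD of log2(CPM + 1) over the 12 oocytes against the mean level in CPM on a log scale, with the 33 proteasome genes in purple and the other 8685 genes that passed the filter in grey. Most members lie along the lower edge of the cloud, pbs-5 at 0.12, while rpn-13 and rpn-6.2 lie at 0.68 and 0.86 among genes of low level.

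Core and regulatory genes were compared within each oocyte. Core genes took 0.743% of counts at -1, 0.656% at -3 and 0.692% at -5, and regulatory genes 0.894%, 0.726% and 0.771%. In 11 of the 12 oocytes the 19 regulatory genes together had more counts than the 14 core genes, with core to regulatory ratios of 0.76 to 0.92. Replicate 1 of -3 was the other, at 1.05. Per gene the order was the reverse. The mean log2 level of core genes exceeded that of regulatory genes by 0.41 to 0.85 in the 12 oocytes in CPM, and by 1.17 to 1.6 per kilobase. The exons of core genes had a median of 921.5 bases and those of regulatory genes 1493 bases. In CPM that difference of means rested on the 3 genes of lowest level. Without rpn-6.2, rpn-13 and rpn-9 it ran from -0.16 to 0.32, with the core higher in 8 of 12 oocytes. Per kilobase it stayed at 0.62 to 1.09, a scale on which the shorter exons of core genes raise the difference. By medians over all genes of each particle, in CPM, the core was higher in all 12 oocytes, by 0.05 to 0.69.

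**Figure D3:**
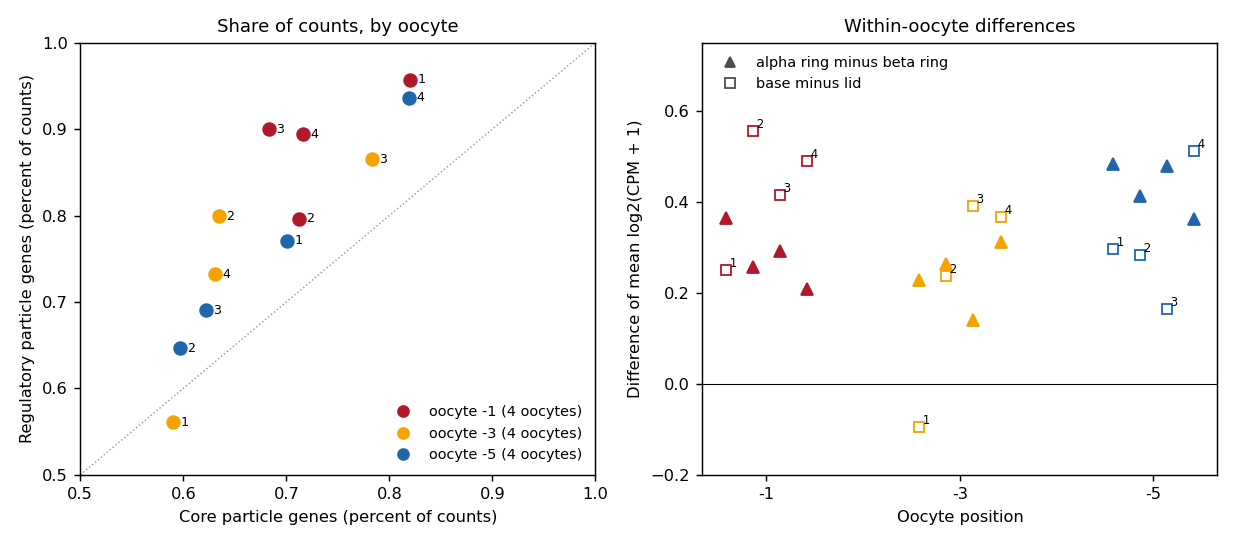
Left, share of counts of core against regulatory particle genes in each oocyte, in percent, with the dotted line marking equal shares and numbers giving the replicate. Right, difference of mean log2(CPM + 1) between alpha and beta ring genes (triangles) and between base and lid genes (squares), by position. Replicate 1 of -3 is the only oocyte under the dotted line, and by these means, which include rpn-6.2, rpn-9 and rpn-13, the only one with the base under the lid.

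Within the core, alpha ring genes stood above beta ring genes in all 12 oocytes by their means and in 11 by their medians, with differences of means of 0.21 to 0.36 on the log2 scale at -1, 0.14 to 0.31 at -3 and 0.36 to 0.48 at -5. The lowest -5 oocyte (replicate 4) and the highest -1 oocyte (replicate 1) met at 0.36, so the youngest and oldest positions just overlapped. Within the regulatory particle, the mean of the base genes exceeded that of the lid genes by 0.17 to 0.56 in 11 oocytes, and in replicate 1 of -3 the difference was -0.09. This order rested on the same 3 genes of low level, of which the lid holds rpn-6.2 and rpn-9 and the base rpn-13. Without them the base was higher in 1 oocyte of 12, with differences of -0.41 to 0.05, and by medians over all genes of each group it was higher in 9 of 12. Replicate 1 of -3 was the lowest of the 12 for 10 of the 33 members, 7 of them regulatory. The share of all genes lowest in that oocyte is not given, so this count is not read as a result about the members.

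Oocyte -1 against oocyte -5, the oldest against the youngest, gave small ratios that leaned upward. Of the 33 members 24 were higher at -1, against 49.0% of all genes, and the median log2 ratio was 0.11 against -0.01 over all genes that passed. The members' median was above 0 under TMM, DESeq2 size factors and unscaled totals alike. On unscaled totals the median over all genes was also above 0, at 0.07. No member was at least 1.5-fold higher (11% of all genes) and none at least 1.5-fold lower (13.6%). In 5 members every -1 oocyte lay above every -5 oocyte (2.64% of all genes), and none lay wholly below (2.89%). By median the lean was larger in the regulatory particle (0.18, 15 of 19 genes higher) than in the core (0.04, 9 of 14 higher). The beta ring had 6 of 7 higher and the alpha ring 3 of 7, and the difference between these groups was not tested.

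The 5 members without overlap were pbs-6 and pbs-4, both structural beta subunits, the ATPase gene rpt-2, the base scaffold gene rpn-2 and the lid scaffold gene rpn-7. For pbs-6 the -1 oocytes had 297, 289, 261 and 260 CPM and the -5 oocytes 207, 203, 201 and 218 CPM, with position levels of 278 and 209 CPM and a log2 ratio of 0.42. For rpn-2 the -1 oocytes had 553, 684, 706 and 577 CPM and the -5 oocytes 501, 413, 410 and 530 CPM, a log2 ratio of 0.36. For rpn-7 the -1 oocytes had 792, 783, 738 and 710 CPM and the -5 oocytes 655, 587, 594 and 680 CPM, a log2 ratio of 0.25. The gap between the lowest -1 and the highest -5 oocyte was widest for pbs-6, at 260 against 218 CPM. It was small for rpn-2, at 553 against 530 CPM, and rpn-7, at 710 against 680 CPM. The gaps were narrowest for pbs-4 and rpt-2. The lowest -1 oocyte of pbs-4 had 275.4 CPM against 274.9 CPM in the highest -5 oocyte (log2 ratio 0.19). For rpt-2 the same values were 369 and 361 CPM (log2 ratio 0.17).

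Single oocytes moved this comparison. Leaving out 1 oocyte at a time took the median from 0.07 (without replicate 4 of -1) to 0.21 (without replicate 4 of -5). Replicate 4 of -5 was the highest of the 12 oocytes for 6 members, a count given without the share of all genes. Its members lay at a median of 0.09 on the log2 scale relative to each gene's median over the other 11 oocytes. The other -5 oocytes had -0.16, -0.22 and -0.14. Replicate 4 of -5 was also the oocyte with the raised sheath and cuticle marker shares, 0.077% and 0.0764% of counts. It had 0.102% of counts in muscle markers against 0.0331 to 0.0707% in its 3 companions and 0.0808 to 0.123% at -1. The part of these shares in the proteasome levels was not tested. Without it 28 of 33 members were higher at -1 (50.03% of all genes), and 9 had no overlap (5.61% of all genes), the additions being pbs-1, rpt-1, rpn-1 and rpn-13. The largest ratio was shared by pbs-6 and rpn-13 at 0.42, and for rpn-13 it depended on 1 cell: it was 1.02 without replicate 4 of -5, and 0.27 without replicate 2. The lowest ratios were those of pas-7 (-0.14), rpn-6.1 (-0.13) and pbs-5 (-0.11). Without replicate 4 of -5 that of rpn-6.1 changed direction, to 0.16, and those of pas-7 and pbs-5 came to -0.01.

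**Figure D4:**
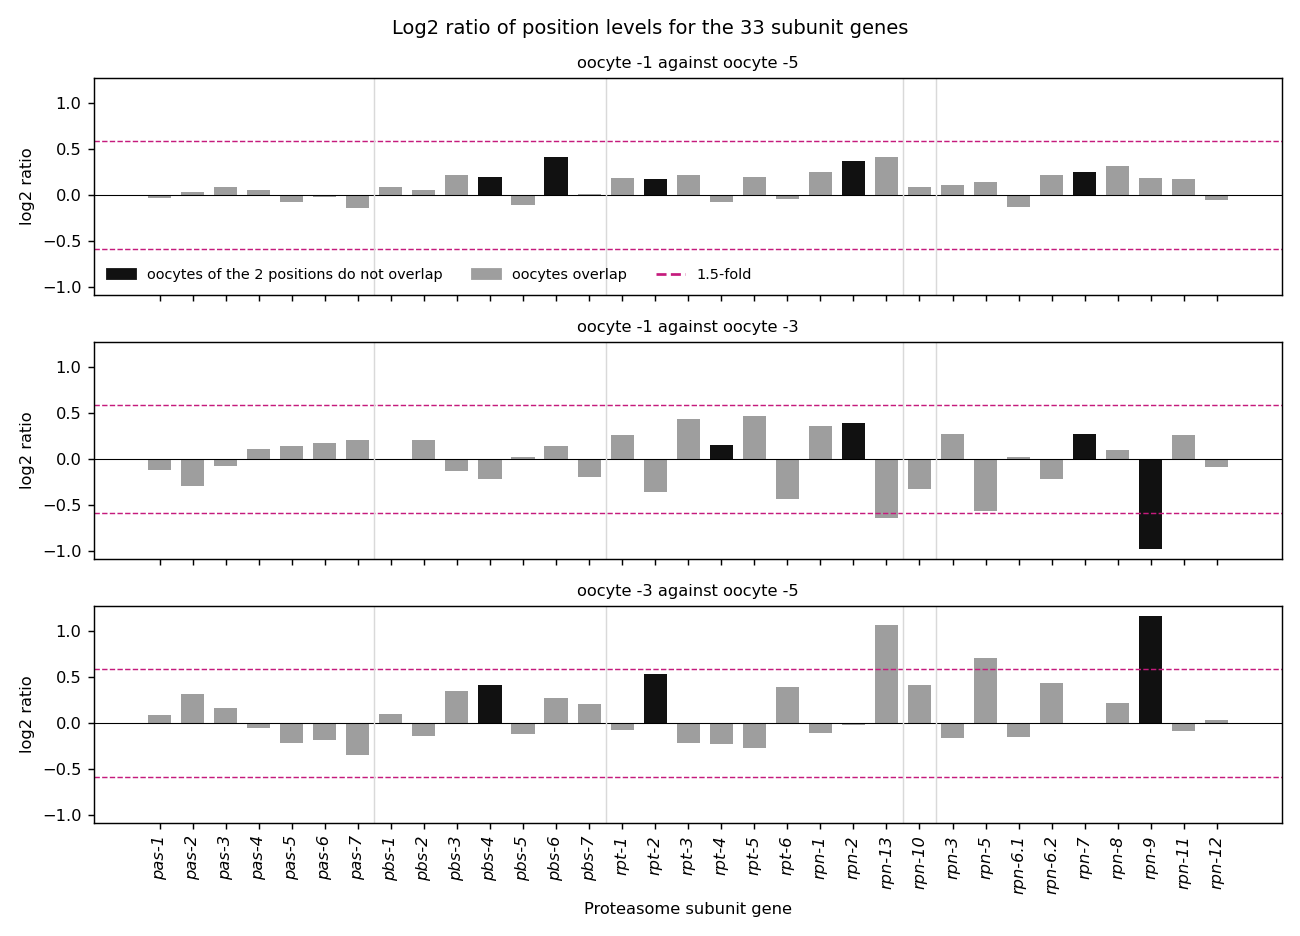
Log2 ratio of the position levels of each of the 33 genes in the 3 comparisons, with black bars where the oocytes of both positions do not overlap, grey bars where they do, and dashed lines at 1.5-fold. Bars in the first comparison all stay within the dashed lines, and rpn-9, rpn-13 and rpn-5 pass the upper line in oocyte -3 against oocyte -5.

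Oocyte -1 against oocyte -3 shares its -1 oocytes with the previous comparison. Of the 33 members 18 were higher at -1 and 15 lower, against 51.3% of all genes higher, and the median log2 ratio was 0.02, as was that of all genes. None was at least 1.5-fold higher at -1 (16.6% of all genes) and 2 were at least 1.5-fold lower (19.9%), rpn-9 at -0.98 and the ubiquitin receptor gene rpn-13 at -0.64. In 3 members every -1 oocyte lay above every -3 oocyte (3.44% of all genes), rpn-2 at 0.39, rpn-7 at 0.27 and the ATPase gene rpt-4 at 0.15. In 1 member, rpn-9, all lay below (2.99%). The largest ratios were those of rpt-5 (0.47) and rpt-3 (0.43), both ATPase genes whose oocytes overlapped, followed by rpn-2. Of these, rpn-2 came to 0.20 without replicate 1 of -3, where it stood at 269 CPM while replicates 2 to 4 had 531, 503 and 546 CPM. Leaving out replicate 1 of -3 gave 3 members wholly lower at -1 (4.13% of all genes), rpt-6, rpn-10 and rpn-9. Leaving out replicate 2 of -3 also gave 3 (6.60%), and leaving out any 1 of the -1 oocytes gave 2 (3.88 to 6.01%). Leaving out replicate 3 of -3 gave 5 members wholly higher (5.39%), as did leaving out replicate 2 of -1 (6.16%). Without replicate 3 of -3 a single member stayed at least 1.5-fold lower, and the median came to 0.13. The share of all genes at least 1.5-fold lower in that setting is not given.

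Oocyte -3 against oocyte -5 shares its oocytes with both other comparisons. Of the 33 members 17 were higher at -3, against 49.2% of all genes, and the median log2 ratio was 0.03, or -0.09 on unscaled totals, where the median over all genes moved by -0.13. At least 1.5-fold higher at -3 were 3 members (17% of all genes), rpn-9, rpn-13 and rpn-5, and none was at least 1.5-fold lower (17.2%). Every -3 oocyte lay above every -5 oocyte in 3 members (2.86% of all genes), rpn-9, rpt-2 at 0.53 and pbs-4 at 0.41, and no member lay wholly below (3.15%). The lowest ratios were those of pas-7 (-0.35), rpt-5 (-0.27) and rpt-4 (-0.23), and that of rpt-4 was -0.08 without replicate 4 of -5. Leaving out that oocyte also raised the members without overlap to 8 (3.93% of all genes), the additions being pbs-1, pbs-3, rpt-6, rpn-13 and rpn-10, and the members higher at -3 to 24 (50.7%). Without replicate 1 of -3 the members without overlap were 5 (4.47%). Leaving out replicate 2, 3 or 4 of -3, or replicate 1, 2 or 3 of -5, left 1 member wholly below, against 4.11 to 6.72% of all genes.

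Of the 33 genes, rpn-9 differed most between positions. Its product is a scaffold subunit of the lid. The -3 oocytes had 77.7, 97.6, 81.7 and 91.0 CPM. The -1 oocytes had 29.1, 49.3, 46.4 and 54.9 CPM, and the -5 oocytes 35.2, 37.0, 41.1 and 41.1 CPM. Every -3 oocyte therefore lay above every oocyte of the other two positions, while -1 and -5 overlapped. The position levels were 86.6 CPM at -3 (interval 84.3 to 88.9), 43.9 CPM at -1 (42.2 to 45.6) and 38.7 CPM at -5 (37.0 to 40.4), which made -3 1.97-fold higher than -1 and 2.24-fold higher than -5. The log2 ratio of -3 against -5 stayed between 1.12 and 1.21 when any 1 oocyte was left out, and that of -1 against -3 between -1.17 and -0.75. On unscaled totals these ratios were 1.04 and -0.78. All -3 oocytes above all others was a pattern of 1 member of 33, and of 106 of the 8718 genes that passed, or 1.22%. The gene (WBGene00004465) lies at II, 11237447 to 11239092, on the minus strand, in the coordinates of the count table. Of its exon bases 9.35% are shared with T06D8.12 on the opposite strand, which had 0 CPM at all 3 positions. Reads in the shared bases could be lost from both genes, so that level does not show how many fell there.

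In the authors' deposited table for these positions rpn-9 ranked 1 of 7277 genes by p-value for -3 against -5, with a log2 fold change of 1.19. In the authors' deposited table for -1 against -3 it ranked 35 of 7585, at -0.96. Those ranks take the oocytes as replicates, and the tables do not state the direction, which was read from the counts. Over the members, the sign in the authors' deposited tables was that of the ratios given here for 31, 33 and 31 of 33 genes in -1 against -5, -1 against -3 and -3 against -5. The best rank of any member in the authors' deposited table for -1 against -5 was 224 of 7286.

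**Figure D5:**
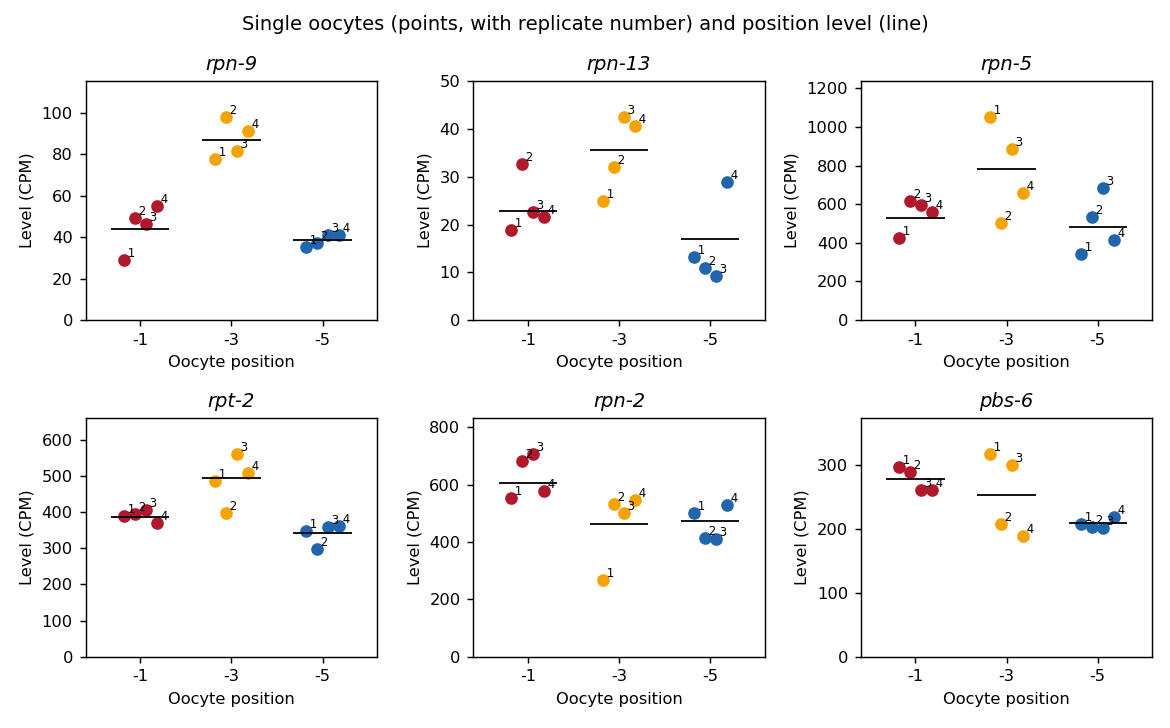
Level in CPM of 6 subunit genes in single oocytes, by position, with the replicate number beside each point and a line at the position level. The 4 oocytes of -3 stand above all others for rpn-9, while for rpn-13 replicate 4 of -5 lies apart from its 3 companions and for rpn-2 replicate 1 of -3 lies under all others.

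Of the 2 other genes past 1.5-fold in oocyte -3 against oocyte -5, rpn-13 encodes a ubiquitin receptor of the base. Its -3 oocytes had 25.03, 32.0, 42.4 and 40.6 CPM, its -1 oocytes 18.8, 32.7, 22.54 and 21.6 CPM, and its -5 oocytes 13.2, 10.99, 9.30 and 28.8 CPM. In 3 of the -5 oocytes it was under every oocyte of -1 and -3, and replicate 4 was within their range. The position levels were 35.6 CPM at -3 (34.1 to 37.1), 22.8 CPM at -1 (21.6 to 24.02) and 17.1 CPM at -5 (15.96 to 18.2). The log2 ratio of -3 against -5 was 1.06, and 1.66 without replicate 4 of -5. Of its exon bases 7.66% are shared with let-767 on the same strand, which stood at 121 to 145 CPM by position and was lowest at -3.

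The lid scaffold gene rpn-5 was abundant and uneven. Its -3 oocytes had 1049, 501, 889 and 658 CPM, its -1 oocytes 426, 617, 598 and 557 CPM, and its -5 oocytes 345, 536, 683 and 416 CPM. Replicates 1 and 3 of -3 were above all other oocytes and replicate 2 of -3 was within the range of both other positions. The log2 ratio was 0.71 against -5 and -0.57 for -1 against -3. Without replicate 1 of -3 they were 0.54 and -0.40, and without replicates 1 and 3 of -3 the second was -0.18.

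The ATPase gene rpt-2 had -3 oocytes of 487, 396, 560 and 509 CPM, -1 oocytes of 390, 396, 406 and 369 CPM and -5 oocytes of 348, 299, 359 and 361 CPM. All -3 oocytes lay above all -5 oocytes, and replicate 2 of -3 fell within the range of -1. The position levels were 495 CPM at -3, 386 CPM at -1 and 342 CPM at -5. For pbs-4 the -3 oocytes had 399, 290, 361 and 311 CPM, the -1 oocytes 293, 333, 283 and 275 CPM and the -5 oocytes 219, 259, 269 and 275 CPM. Here, too, -5 was the lowest position, and -3 and -1 overlapped. Of the exon bases of pbs-4 9.11% are shared with mrrf-1 on the opposite strand, which had 7.30 to 10.8 CPM.

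By position, 15 of the 33 members had their highest level at -3, 12 at -1 and 6 at -5, against 37.4%, 32.7% and 29.9% of all genes. Lowest at -3 were 16 members, lowest at -5 were 14, and lowest at -1 were 3 (pas-1, rpt-6 and rpn-12), against 39.5%, 28.1% and 32.4% of all genes. Of the 12 members highest at -1, 9 were regulatory genes, among them 3 ATPase genes (rpt-1, rpt-3 and rpt-5), both base scaffolds and 4 lid genes (rpn-3, rpn-7, rpn-8 and rpn-11). Highest at -3 were 7 core genes and 8 regulatory ones, and highest at -5 were 4 core genes (pas-5, pas-6, pas-7 and pbs-5) with rpt-4 and rpn-6.1. Subunits of the same particle were thus divided among the positions, and many of these differences lay within the spread of single oocytes.

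The subunits that bind or remove ubiquitin did not share a pattern. The receptor gene rpn-10 had 203 CPM at -1, 255 CPM at -3 and 192 CPM at -5, and rpn-13 was likewise highest at -3. The gene rpn-1 had 671, 524 and 564 CPM and the deubiquitinase gene rpn-11 389, 325 and 345 CPM, both highest at -1. In all of the 3 comparisons the oocytes of rpn-1, rpn-10 and rpn-11 overlapped. The proteolytic subunit genes changed little: pbs-1 had 486, 488 and 458 CPM at -1, -3 and -5, pbs-2 485, 421 and 466 CPM, and pbs-5 660.5, 653 and 713 CPM.

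Replicate 1 of -3 departed most from other oocytes along gene length. Relative to each gene's median over the other 11 oocytes, its 17 members with at least 1200 exon bases had a median of -0.19 on the log2 scale and its 16 shorter members 0.13. Among the genes of at least 100 CPM the 1528 long ones had -0.28 and the 757 short ones 0.33. This oocyte was the lowest of the 12 for rpn-1 and rpn-2, whose exons, of 3176 and 3133 bases, are the longest of the 33. For rpn-1 it had 316 CPM, and its 3 companions 554 to 656 CPM. Replicate 3 of -3 was the highest of the 12 for 10 members, a count given without the share of all genes. Its members had a median of 0.24 on the same scale. Smaller shifts along length, in either direction, were present in other oocytes. Short and long genes of at least 100 CPM had 0.18 and -0.11 in replicate 3 of -3, and 0.19 and -0.07 in replicate 3 of -5. They had -0.21 and 0.08 in replicate 4 of -5, and -0.17 and 0.04 in replicate 3 of -1. The part of gene length in the ratios between positions was not tested.

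Overlaps on the opposite strand limit 2 more of the genes named, because the counting command carried no strand option. It carried no option for overlapping reads either. Reads in shared bases could therefore be lost from both genes, here and for rpn-9, rpn-13 and pbs-4. The part of such losses in the levels was not tested. For rpn-7 20.5% of the exon bases are shared with nemt-1, which had 0.0661 CPM at -1 and 0 CPM at -3 and -5, and for rpt-4 6.93% are shared with rpoa-49, at 83.9, 92.4 and 102 CPM. Among the remaining 28 members the largest overlap was 3.02%.

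Genes that work with the proteasome were taken from lists and described by the same ratios for oocyte -1 against oocyte -5. Among partners and regulators of the proteasome 12 of 13 passed the filter, 7 of 12 were higher at -1 and the median log2 ratio was 0.06, with no member past 1.5-fold or without overlap. The largest changes were those of dss-1, a small lid subunit outside the naming rule (-0.53), png-1, a glycanase that activates the transcription factor SKN-1A (-0.37), and skn-1 itself, the gene of that regulator of proteasome genes (0.33). For the segregase CDC-48, which extracts tagged proteins and hands them to the proteasome, 11 of 11 passed, 6 were higher and the median was 0.03. The largest were ubxn-3, at a low level of 3.42 against 2.02 CPM (0.76), cdc-48.2 (0.36) and ufd-3 (0.31), of which ufd-3 had no overlap.

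For ubiquitin and its activation 16 of 18 passed, 7 were higher and the median was -0.08. The gene of the ubiquitin-activating enzyme, uba-1, had the largest ratio, 0.81, at 259 CPM in -1 and 148 CPM in -5 without overlap. It was followed by the conjugating enzyme genes ubc-15 (-0.67, at 4.13 and 6.56 CPM) and ubc-1 (0.53). Other large complexes gave a scale for the proteasome values. The 8 genes of the CCT chaperonin, which folds actin and tubulin, were all lower at -1, with a median of -0.26, led by cct-6 (-0.52), cct-5 (-0.40) and cct-4 (-0.31), and none was past 1.5-fold or without overlap. The COP9 signalosome, related to the lid in its subunits, had 4 of 6 genes higher and a median of 0.22, the largest being csn-6 (0.40), csn-1 (0.38) and csn-3 (0.30), and csn-6 and csn-3 had no overlap. The initiation factor eIF3, which shares the same kinds of subunits, had 9 of 11 higher and a median of 0.12, with eif-3.E (0.44), eif-3.C (0.31) and eif-3.G (0.15) the largest, and none was without overlap. Differences between these lists and the proteasome genes were not tested.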

How the data were processed

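RNA of 12 single oocytes was made into libraries with the SMART-seq v4 3' DE kit, per the labels' protocols. The deposited table holds whole read counts per gene, not normalized. The authors used cutadapt 1.18, FastQC 0.11.5, STAR and featureCounts (1.5.3 in the submitters' processing notes, 1.6.4 per the file headers) with WormBase WS271, and with no option for strand, multi-mapping or overlapping reads, per the file headers. The build they used was not given in the sources used here. The authors also deposited, for each pair of positions, log2 fold changes and p-values from DESeq2 1.32.0, per the submitters' processing notes. Their log2 fold changes and the rank of their p-values are quoted; the p-values are not.

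Genes were kept with edgeR 4.0.16 (R 4.3.3) and its default filter by position, which left 8718 of 46903. Library sizes were scaled with TMM. A level at a position divides the counts of the 4 oocytes, added up, by their added scaled sizes, with an exact Poisson interval; shares have exact binomial intervals. Ratios set sums under 3 counts over the position to that floor. SDs use log2(CPM + 1). Position labels grouped the oocytes. A position counts as 1 sample, so members past 1.5-fold, or without overlap of oocytes, are read against the same share of all genes. Alternatives were DESeq2 1.42.0 size factors, unscaled totals, the mean of the oocytes' CPM, other filters, leaving out oocytes, and length scaling. The code was tested on simulated data. Symbols came from the reference gene names, exon overlaps from the exons the count table lists, and biotypes from the Ensembl annotation, in which 12 of the 33 members have the start and end of the count table. Members, lists and the rule for named genes (the 3 highest and 3 lowest ratios and levels, members without overlap, catalytic and ubiquitin-linked subunits, extremes of spread) were chosen with earlier results of these data known; single genes outside the rule were named after their values were seen.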

Additional observations from a re-analysis of the deposited data

Results flagged for a closer look

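Among 105 groups of 4 oocytes checked, 5 held a single oocyte far from the other 3 relative to the range of the group, and chance flags about 1 group in 20. The gene rpn-2, a base scaffold, had 268.922 CPM in replicate 1 of -3 against 503 to 546 CPM in the others. The proteolytic subunit gene pbs-1 had 584.324 CPM in replicate 4 of -5 against 389 to 405 CPM. The alpha ring gene pas-3 had 594.521 CPM in replicate 3 of -1 against 680 to 689 CPM. The proteolytic subunit gene pbs-5 had 695.123 CPM in replicate 3 of -3 against 637 to 641 CPM. The lid gene rpn-12 had 344.429 CPM in replicate 1 of -5 against 426 to 441 CPM.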

How the results depend on the processing

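No paired analysis was possible because the labels name no animals, and no value comes from a test. Of the summary values 247 stayed within the limits set for a move and 43 moved. Of all of these 5 took the other sign, all near 0: medians of -3 against -5 on unscaled totals (-0.0898), without replicate 3 of -3 (-0.0399) and without replicates 1 and 3 (-0.00434), the median of -1 against -3 without replicate 1 of -1 (-0.0016), and core minus regulatory at -1 without the 3 genes of lowest level. Of ratios of named members 336 stayed and 5 moved. All 33 members passed with no filter and with at least 10 counts in each oocyte. On unscaled totals the median of all genes shifted by 0.07, 0.21 and -0.13 for -1 against -5, -1 against -3 and -3 against -5, and the members' median for the last 2 came to 0.22 and -0.0898. On those totals members without overlap were 2 higher in -1 against -5, 5 higher in -1 against -3 and 1 higher in -3 against -5, and 3 members were 1.5-fold higher and 1 lower in -1 against -3. With the mean of the oocytes' CPM 1 member was 1.5-fold higher in -1 against -5 and 1 lower in -1 against -3. With DESeq2 size factors 2 members lay wholly lower in -1 against -3. For unscaled totals, mean CPM and DESeq2 size factors the share of all genes is not given. These counts are therefore not read as results about the members. Without replicates 1 and 3 of -3, the median of -1 against -3 was 0.10, with 8 members wholly higher and 3 lower (8.64% of all genes each way), and -3 against -5 had 6 higher (8.91%) and 3 lower (7.97%). Leaving out 1 oocyte at a time gave, for -1 against -5, medians of 0.074 to 0.21, 0 to 1 members 1.5-fold higher and 5 to 9 without overlap (3.43 to 5.61% of all genes). For -1 against -3 it gave medians of -0.0016 to 0.13, 1 to 3 members 1.5-fold lower, 3 to 5 wholly higher (4.66 to 7.21%) and 1 to 3 wholly lower (3.88 to 6.60%). For -3 against -5 it gave 3 to 8 wholly higher (3.57 to 5.196%) and 0 to 1 wholly lower (4.11 to 6.72%). With an oocyte left out, the share of all genes past 1.5-fold is not given, and the members' 1.5-fold counts are not read further. The core minus regulatory difference was 1.39, 1.37 and 1.49 per kilobase at -1, -3 and -5, and -0.0238, 0.0557 and 0.0559 in CPM without the 3 genes of lowest level, an alternative chosen after seeing the data; both follow from how they are built, and the cause of the other moves was not tested. The lowest count of any member in any oocyte was 61. Without molecular identifiers, reads do not give the number of molecules sampled. The part of sampling in the spread among oocytes was therefore not tested.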
